A study of Drosophila melanogaster with 6 samples.

Results

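The digestive trypsin genes of Drosophila melanogaster were followed through a pulse-chase of tagged RNA in whole embryos. The family was defined by name: a probe was a member when the authors' annotation table, or the gene name in the scanner files of the uridine-only series, gave it 1 of 10 names (alphaTry, betaTry, gammaTry, deltaTry, epsilonTry, zetaTry, etaTry, thetaTry, iotaTry and CG30031). This found 13 of the 32162 probes on the array, for 10 of 13139 named genes. The rule uses names only and no measured value.

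The RNA came from permeabilized wildtype embryos of stage 12 to 15, of a strain that carries UAS-T.g.UPRT without GAL4, at 30 degrees C. All groups shared a 1-hour pulse in 1 mM 4-thiouridine, which tags new RNA in every tissue. In the U+actD series the chase in 10 mM uridine also held actinomycin D, an inhibitor of transcription, and in the UO series the chase held uridine only. Tagged RNA was purified at the end of the pulse and 1 and 3 hours into the chase, and each of these 6 groups was 1 pool of samples on 1 array, so no group had a replicate. In both series the pulse came before any actinomycin D.

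Trypsins are secreted serine proteases that cut proteins after lysine and arginine. In the fly they are made by gut cells as inactive precursors, are activated in the gut lumen and digest food protein in larvae and adults. The members are close neighbours on chromosome arm 2R. In the Release 6 annotation of RefSeq the order along the arm was zetaTry, etaTry, thetaTry, alphaTry, epsilonTry, betaTry, gammaTry, CG30031, CG30025, deltaTry, CG13202 and iotaTry. The 12 genes from the first member to the last spanned 18.4 kb, and 2 of them, CG30025 and CG13202, are not members. Several of these genes are near-identical copies, so a probe can bind RNA of more than 1 of them.

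The names of 3 probes differed between the files. Probe A_09_P012316 was CG30031 in the annotation table and deltaTry in the UO scanner files, and A_09_P057371 was CG30031 in the table and CG30025 in the UO scanner files. Probe A_09_P111005 carried the cDNA name LP22467 in the table and the name etaTry in the UO scanner files. Each of the 3 is therefore given with its probe number, and so are the 2 probes named deltaTry in both sources. Which copy supplied the signal of these probes was not tested.

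Values are net signals (spot foreground minus local background). Within a series the arrays were brought to 1 scale with the spike-in RNAs, whose factors for the pulse, 1-hour chase and 3-hour chase were 1, 0.815 and 1.01 in U+actD and 1, 0.411 and 0.320 in UO. The detection threshold was the 95th percentile of 153 negative control spots, and probes over it are called above background. It was 353.8, 128.4 and 108.2 on the U+actD arrays and 51, 54 and 50 on the UO arrays. The local background was 0 at 46.0 to 54.7% of the spots of the UO arrays and at 0% of those of the U+actD arrays. Probes with 2 spots gave the only measure of scatter within an array. The brighter spot was 1.00 to 2.60 times the dimmer one (median 1.17, 10 pairs above background) in U+actD and 1.08 to 2.79 times (median 1.25, 5 pairs) in UO.

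The UO data exist in 2 forms that do not hold the same values. For the 6 member probes listed in the authors' normalized table for U+actD, the table value was 1 to 1.20, 1.92 to 2.07 and 1.70 to 1.77 times the scanner signal at the pulse, 1-hour and 3-hour chase, which is nearly 1 factor per array. For the UO member probes above background the same ratio was 0.978 to 3.58, 4.04 to 13.8 and 3.42 to 6.31. The UO table values are therefore no rescaling of the UO scanner signals, and the results below name which of the 2 was used.

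In U+actD the signals of 7 of the 9 trypsin probes that could be tested stood above the pulse at the 1-hour chase and not far from it at the 3-hour chase, while the signal of most probes was far below it. In the UO scanner signals the same probes were lower, relative to the pulse, than most others from the 1-hour chase on. Only 4 member probes were above background on all 6 arrays (betaTry, gammaTry and both CG30031 probes), and 9 of 13 passed on the arrays of both series for 1 or more time points and entered the tests.

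**Figure D1:**
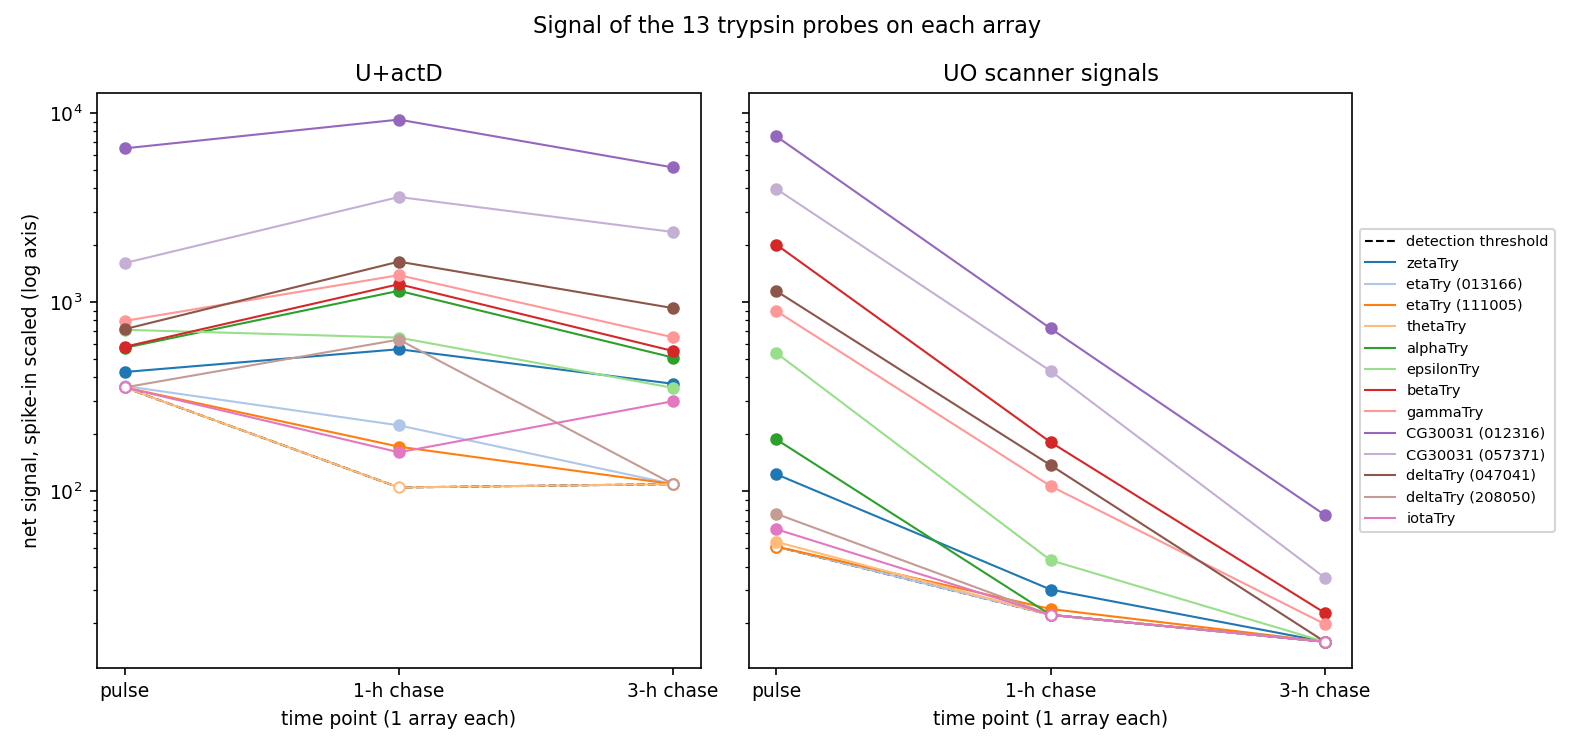
Net signal of the 13 trypsin probes after spike-in scaling (log axis) at the pulse, 1-hour and 3-hour chase, with U+actD on the left and the UO scanner signals on the right. Each point is 1 array, open points are not above background and lie on the detection threshold (dashed). In U+actD 7 of the lines above background at the pulse peak at the 1-hour chase, and in UO the lines run downwards until many meet the threshold.

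The CG30031 probe A_09_P012316 was far above the threshold on most arrays. Its net signal was 6496, 11307 and 5109 on the U+actD pulse, 1-hour and 3-hour arrays, against 7522, 1764 and 234 on the UO arrays. After spike-in scaling this was 142% and 79.2% of the pulse in the U+actD chases, and 9.64% and 0.996% in the UO chases. The series were scaled apart, so their levels were not tested against each other. Set against their own pulses, the courses differed at the 1-hour chase. The pulses, both taken before actinomycin D, were themselves unlike. There the summed scaled signal of the 13 member probes was 13080 in U+actD and 16637 in UO, against 2.70e+08 and 2.81e+07 over all 32162 probes. How far the difference between the courses lies in the pulse arrays was not tested.

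The second CG30031 probe, A_09_P057371, had net signals of 1607, 4408 and 2328 in U+actD and 3965, 1051 and 109 in UO. It stood at 224% and 146% of the pulse in the U+actD chases, against 10.9% and 0.880% in the UO chases. In U+actD both chase arrays were above the pulse, which was otherwise seen for the deltaTry probe A_09_P047041 alone among the tested members. That probe had 719, 2007 and 922 in U+actD and 1144, 334 and 3 in UO. The last value is not above background, so the UO signal was at least 71.5-fold lower at the 3-hour chase than at the pulse, whereas in U+actD it stood at 129% of the pulse.

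betaTry and gammaTry followed the same course. betaTry gave 580, 1525 and 547 in U+actD, which was 214% and 95.03% of the pulse, and 2013, 442 and 71 in UO, which was 9.03% and 1.13%. gammaTry gave 795, 1703 and 646 in U+actD (175% and 81.9% of the pulse), against 897, 259 and 62 in UO (11.9% and 2.21%). For these 2 genes both the 1-hour rise and the 3-hour fall in U+actD were smaller than the largest gap between paired spots in that series (2.60 times). Each of the 2 probes has 1 spot, so its own scatter is not known.

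alphaTry had 573, 1407 and 505 in U+actD, or 200% and 88.8% of the pulse. In UO it had 188, 14 and 24, and only the pulse was above background, so the signal was at least 8.47-fold and at least 11.7-fold lower in the chases. epsilonTry stood lower than its neighbours in U+actD, with 713.5, 796 and 349, or 91.0% and 49.3% of the pulse after spike-in scaling. In the authors' table it was at 214% of the pulse at the U+actD 1-hour chase, so its direction there depends on the scaling. In UO epsilonTry had 538.5, 105 and 33.5, which was 12.5-fold lower at the 1-hour chase and at least 33.6-fold lower at the 3-hour chase. Both genes thus had UO chase signals far under the pulse.

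The remaining probes were near their thresholds on several arrays. zetaTry had 427, 691 and 367 in U+actD, or 132% and 86.6% of the pulse. In UO zetaTry had 123, 73.5 and 40.5, which was 4.07-fold lower at the 1-hour chase and at least 7.68-fold lower at the 3-hour chase. It moved the same way in each series as the brighter members, with the smallest UO fold at the 1-hour chase of the members measured on both arrays.

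etaTry, thetaTry and iotaTry could be followed only in part. The etaTry probe A_09_P013166 had 360, 273.5 and 83 in U+actD, of which the pulse barely passed its threshold and the 3-hour chase was at least 3.30-fold lower, and 32.5, 30.5 and 28 in UO, none of them above background. The other etaTry probe, A_09_P111005, had 78, 211 and 71 in U+actD and 21, 58 and 10 in UO, and passed only on the 1-hour array of each series. Neither gave a UO change that could be measured.

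thetaTry had 108, 99.5 and 76.5 in U+actD, with no array above background, and 54, 26.5 and -4 in UO, at least 2.43-fold and at least 3.37-fold lower than the pulse. iotaTry had 270, 197 and 297 in U+actD, where the pulse did not pass, and 63, 20 and 50 in UO, at least 2.84-fold and at least 3.94-fold lower. The deltaTry probe A_09_P208050 had 353, 777 and 16 in U+actD, at least 1.79-fold above the pulse at the 1-hour chase, and 76, 48 and -2 in UO, at least 3.42-fold and at least 4.75-fold lower. So each of the 11 member probes with a UO pulse above background was lower in both UO chases by the scanner signals, and no member probe was saturated on any array. Most probes were lower there too: 15.9% of all tested probes were above the pulse at the UO 1-hour chase and 0.231% at the 3-hour chase. With the UO spike-in factors, a chase value set to the threshold lies below any pulse above background.

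**Figure D2:**
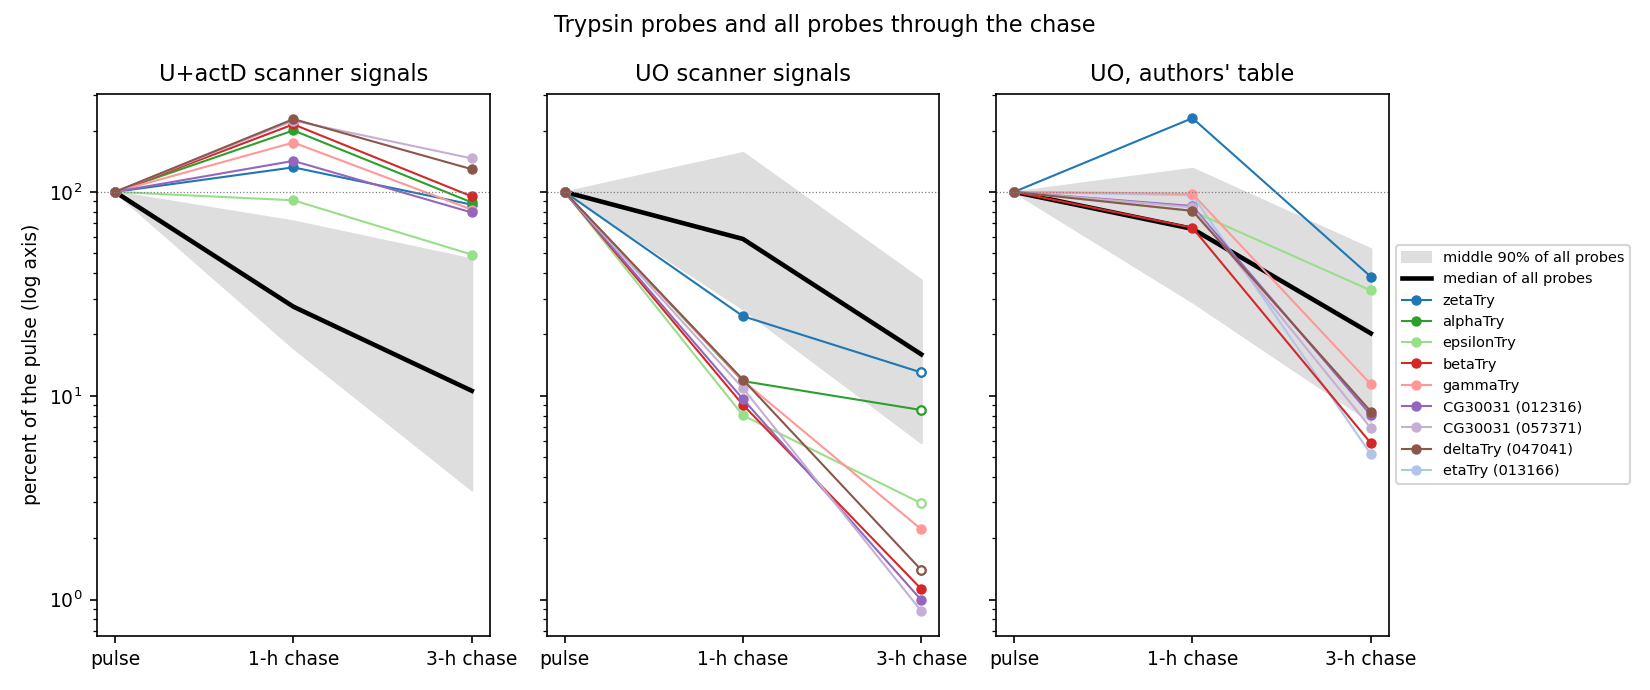
Signal as percent of the pulse (log axis) in U+actD scanner signals, UO scanner signals and the authors' UO table. Coloured lines are the tested trypsin probes other than A_09_P111005 (in the table, those listed), open points rest on the detection threshold, the black line is the median of all probes and grey the middle 90% of them; at the 1-hour chase the trypsin lines lie above the grey in U+actD and at or below its lower edge in the UO scanner signals.

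Set against all tested probes, the 9 member probes stood apart in opposite directions in the 2 series. The median change of the 9 member probes was 0.80 log2 at the 1-hour and -0.21 at the 3-hour chase in U+actD, against -3.08 and -5.50 in UO. Over all 19503 tested probes the median was -1.87 and -3.24 in U+actD, against -0.77 and -2.65 in UO. In U+actD 7 of 9 member probes were above the pulse at the 1-hour chase, where 1.59% of all tested probes were, and 2 of 9 at the 3-hour chase, where 1.37% were. The exceptions at the 1-hour chase were epsilonTry and the etaTry probe A_09_P111005. Each of the 7 rises (1.32 to 2.28 times the pulse) was smaller than the largest gap between paired spots in U+actD (2.60 times).

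In the UO scanner signals 8 of 9 member probes were at least 2-fold below the median probe at the 1-hour chase, where 10.2% of all tested probes were, and 6 of 9 at the 3-hour chase, where 7.61% were. Both at once, a 1-hour signal above the pulse in U+actD and at least 2-fold below the median probe in UO, held for 7 of 9 member probes and for 0.667% of all tested probes. These limits were chosen after the values were seen, so the counts are a description. The relative change, the log2 change minus the shift between the medians of the chase and pulse arrays (-1.90 in U+actD and -0.56 in UO at the 1-hour chase, -3.51 and -2.92 at the 3-hour chase), is what is meant here by a change against the median probe. At the 1-hour chase it was 1.76 to 3.09 in U+actD and -3.09 to -1.47 in UO for the 8 member probes other than A_09_P111005.

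The authors' table gave another UO course. All 8 member probes listed for UO were above the median probe at the 1-hour chase, where 51.8% of the 9654 listed probes were. Of these 8, 7 stood at 66.8 to 97.8% of the pulse and zetaTry stood at 230%, against a median of 65.9% over all listed probes. At the 3-hour chase the 8 stood at 5.18 to 38.4% of the pulse, against a median of 20.2%, and 5 were at least 2-fold below the median probe, where 9.09% of all listed probes were. These 5 were betaTry, deltaTry, both CG30031 probes and the etaTry probe A_09_P013166, and the first 4 were also at least 2-fold below the median probe in the UO scanner signals, where that etaTry probe could not be measured. At the 1-hour chase the low UO values were present in the scanner signals only.

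The A_09_P012316 values show this directly. Its table values were 18317, 15609 and 1473 in UO, and the same probe was listed at 6496, 21709 and 9025 in U+actD. betaTry, which the table lists for UO only, had 4181, 2791 and 245. etaTry, not above background in the UO scanner signals, was listed at 328, 316 and 17 in UO through its probe A_09_P013166. In U+actD the 6 listed probes stood higher, relative to the pulse, in the table than in the scanner signals: at the 3-hour chase epsilonTry was at 86.4% and the other 5 at 125 to 256%. The direction of the U+actD values at the 3-hour chase therefore depends on the scaling for alphaTry, gammaTry and A_09_P012316, which were below the pulse with spike-in scaling and above it in the table.

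The common course of both series was tested with limma across all 19503 probes, with series as a block. The 3-hour chase was lower than the pulse for 9 of 9 member probes (estimates -3.49 to -1.57 log2, adjusted p 1.51e-05 to 0.0366), where 97.0% of all tested probes were called lower. The share in the members is near that of all probes. The estimate of A_09_P111005 rests on detection thresholds alone, since neither series had it above background at the pulse or at the 3-hour chase. At the 1-hour chase 0 of 9 member probes were called lower (1 at an unadjusted p under 0.05), where 0.544% of all tested probes were.

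This fit gave every probe the same standard error (0.75 log2 units), because it found no spread of the error between probes. The members did not scatter like other probes: the residual standard deviation of the 9 member probes around the common course had a median of 1.91 log2 units, against 0.64 over all tested probes. With each probe's own residual spread, 0 of 9 member probes and 0 of 19503 probes were called at the 3-hour chase by limma without moderation (1 member probe at an unadjusted p under 0.05). With 75th percentile scaling the calls were also 0 of 9, and 0 of all 19503 probes. Without the UO pulse array the median member estimate was -0.53 log2, and without the UO 3-hour array it was -1.22. Leaving out either 1-hour array did not move the estimates. By limma on the authors' values 0 of 5 member probes passed at the 3-hour chase (0 at an unadjusted p under 0.05), where 94.3% of 9152 probes were called lower.

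After each array was centred on its median probe, no relative change of a member passed. At the 1-hour and 3-hour chase 0 of 9 member probes and 0% of all tested probes were called in either direction by limma (0 and 1 member probes at an unadjusted p under 0.05). The estimates were -0.66 to 0.42 log2 at the 1-hour chase and -0.28 to 1.64 at the 3-hour chase. The highest of the 3-hour estimates were those of zetaTry (1.64), A_09_P111005 (1.53) and alphaTry (1.35). All 3 had a UO 3-hour value at the detection threshold, which limits the loss that could be seen. The 4 member probes above background on all arrays had estimates of -0.28 to 0.32. Each estimate averages the 2 series, whose relative changes had opposite signs at both chases for the 8 probes other than A_09_P111005. For zetaTry the UO value at the 3-hour chase was -0.02, level with the median probe. The sign depended on the pulse array used. Without the UO pulse array the member estimates were 2.02 to 3.70 at the 3-hour and 0.65 to 3.63 at the 1-hour chase. Without the U+actD pulse array they were -3.34 to 1.04 and -3.24 to -0.33. On the authors' values 0 of 5 member probes passed at either chase by limma (0 and 1 at an unadjusted p under 0.05), where 0% of 9152 probes did at the 1-hour and 1.67% at the 3-hour chase.

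**Figure D3:**
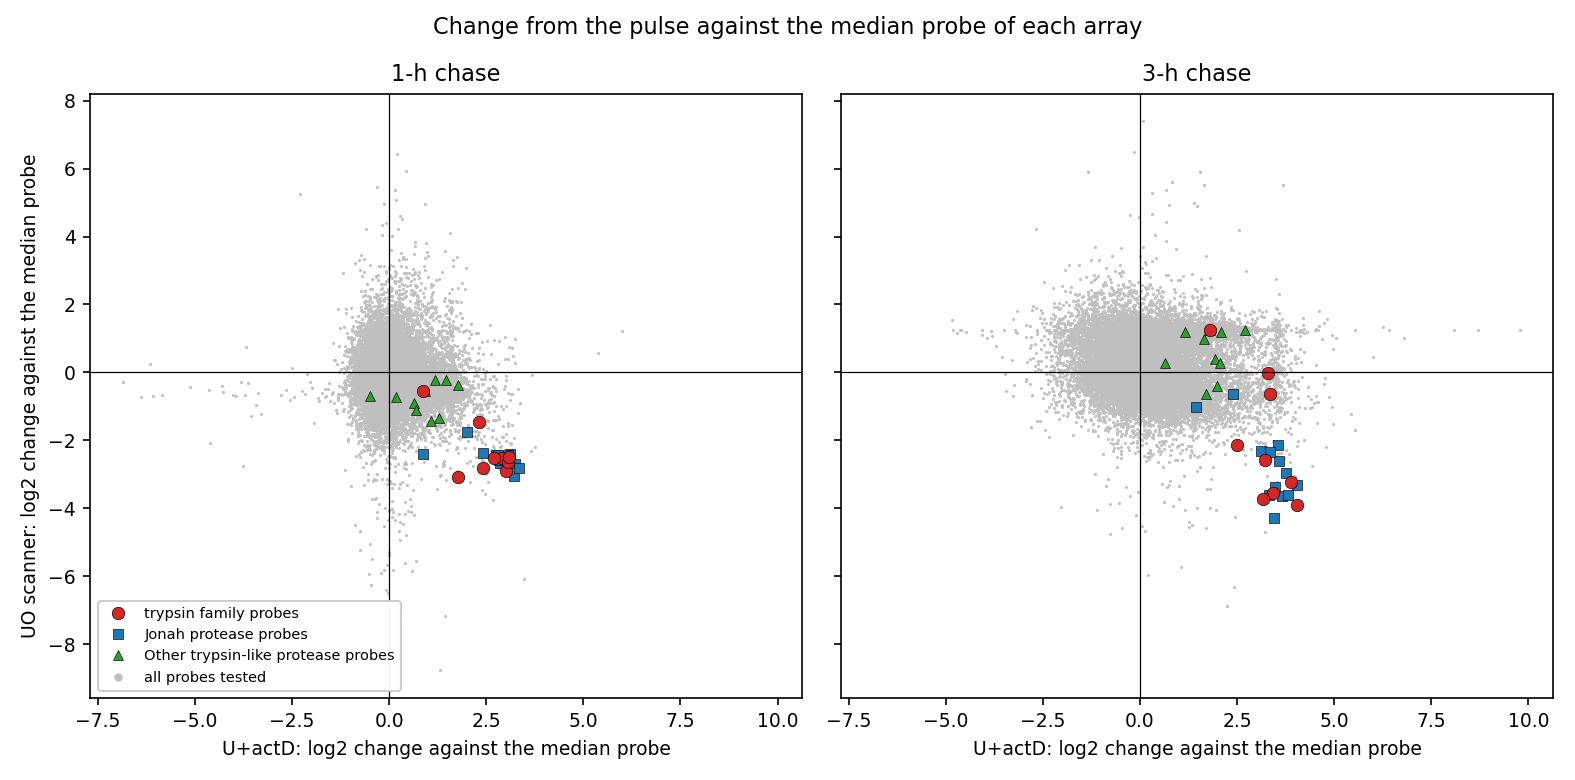
Log2 change from the pulse against the median probe in U+actD (x axis) and in the UO scanner signals (y axis), at the 1-hour and 3-hour chase. Grey dots are the 19503 tested probes, red circles the 9 trypsin probes, blue squares 13 Jonah probes and green triangles 10 probes of other trypsin-like proteases; red and blue lie mostly together towards the lower right at the 1-hour chase.

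The difference between the series was tested as a difference in slope, after both series had been given equal overall chase to pulse ratios. The slope was higher in U+actD than in UO for 7 of 9 member probes, where 3.79% of all tested probes were called in that direction and 2.32% in the other. The 2 members that did not pass were zetaTry (0.91 ± 0.32 log2 per hour, SE, limma adjusted p = 0.0673) and A_09_P111005 (0.09 ± 0.32, adjusted p = 0.921). The differences that passed were 2.43 log2 per hour for A_09_P057371 (adjusted p = 1.84e-10), 2.14 for deltaTry, 2.09 for A_09_P012316, 2.07 for betaTry, 1.69 for gammaTry, 1.30 for epsilonTry (adjusted p = 0.00358) and 1.02 for alphaTry (adjusted p = 0.0325). All 9 estimates were positive.

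The same test on the authors' table, which uses other UO values, called 4 of 5 member probes higher in U+actD, where 1.48% of 9152 probes were called in that direction and 0.382% in the other. These were gammaTry (1.22 ± 0.23 log2 per hour, adjusted p = 0.0166), A_09_P012316 (1.39, adjusted p = 0.00633), A_09_P057371 (1.73, adjusted p = 0.00211) and deltaTry (1.56, adjusted p = 0.00537). epsilonTry had 0.46 ± 0.24 (adjusted p = 0.504). The U+actD arrays are shared by both tests, so they are not independent of each other.

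The slope calls on scanner signals depend on how the error is set. The fit again gave all probes 1 standard error (0.32), while the residual standard deviation of the members had a median of 1.71 log2 units against 0.31 over all tested probes, and with each probe's own spread 0 of 9 passed by limma (0 at an unadjusted p under 0.05). Where the filter kept only probes above background on all arrays, 0 of 4 member probes passed (lowest adjusted p = 0.0833), though all 4 estimates were 1.60 or more, and 0 of the 12482 probes tested were called. The count was also 0 without a filter, with the 99th percentile as threshold and with local backgrounds of 0 replaced. In these settings and with each probe's own spread, 0 of all tested probes were called. With normexp background correction it was 2 of 9, where 3861 of 19532 probes were called in either direction.

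**Figure D4:**
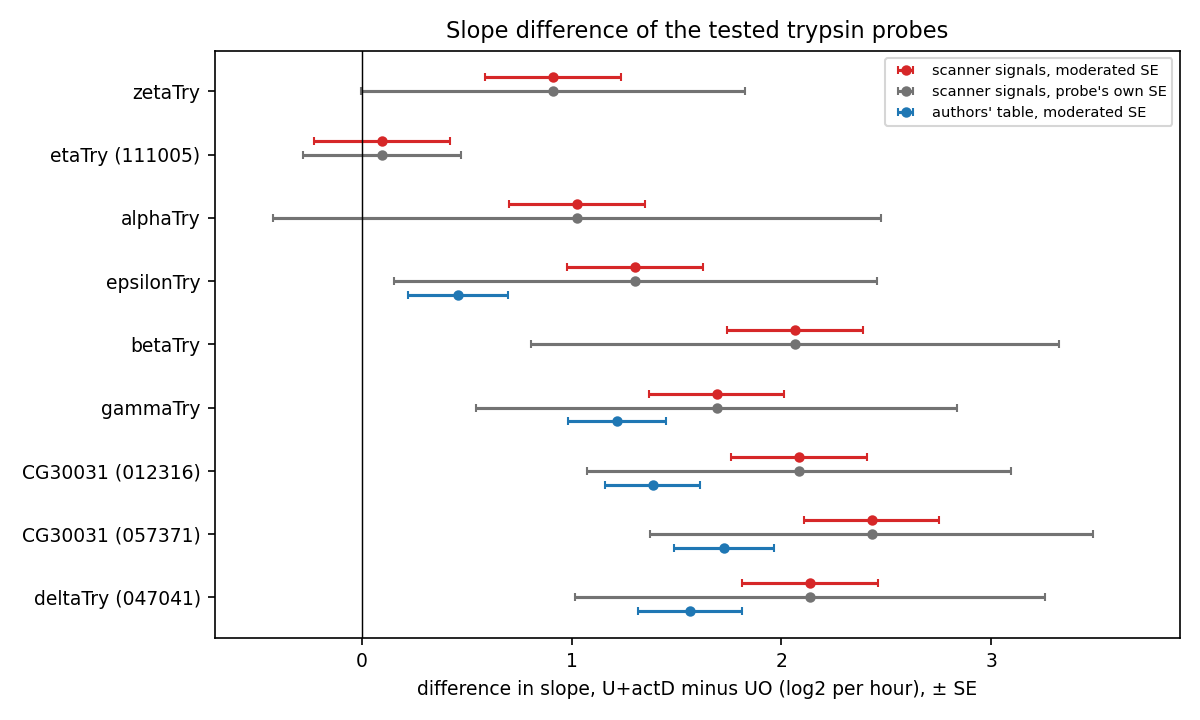
Difference in slope between U+actD and UO (log2 per hour, positive where U+actD is higher) for the 9 tested trypsin probes, ± SE. Red is the fit on scanner signals, grey the same estimates with each probe's own SE and blue the authors' table for the 5 probes it lists in both series; all points lie right of 0, and the grey bars are wider than the red ones.

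A single exponential could be fitted to the UO scanner signals of 5 of the 8 tested probes with a UO pulse above background, and to 1 probe in U+actD. Half-lives came from the slope of ln(signal) over the 3 time points, and only those with a pulse above background and an adjusted R2 of at least 0.75 are given. In the UO scanner signals they were 27.1 and 28.1 min for A_09_P057371 and A_09_P012316, 29.1 min for betaTry and 34.4 min for gammaTry. deltaTry gave 30.3 min with its 3-hour value at the detection threshold, which makes this an upper limit. alphaTry (adjusted R2 0.379), zetaTry (0.690) and epsilonTry (0.642) did not reach the limit. In the UO table the same 5 probes gave 42.2 to 53.7 min, longer in each case, and zetaTry failed there too (adjusted R2 -0.06). With normexp background correction the UO scanner half-lives were 54.0 min for betaTry, 71.5 min for gammaTry, 65.4 min for deltaTry and 43.3 min for A_09_P057371.

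In U+actD a half-life of 169 min for epsilonTry was the single one among the tested members. The untested etaTry probe A_09_P013166 gave 106 min, with its 3-hour value at the threshold, and 39.4 min in the UO table. For the 7 member probes that were above their pulse at the 1-hour chase the adjusted R2 was below 0, so no decay rate can be read from them. That of epsilonTry in U+actD was 390 min in the authors' table and 81.3 min with the 99th percentile as threshold, and in the UO table epsilonTry had 109 min (adjusted R2 0.956). With 1 array per time point these half-lives carry no error estimate.

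The Jonah genes, another large family of secreted serine proteases of the fly gut, were mostly high in the U+actD chase and low in the UO scanner signals as well, though the difference from the trypsins was not tested. Of 16 listed genes, 12 genes with 13 probes entered the tests. The median relative change of the 9 trypsin probes was 2.71 and 3.30 log2 in U+actD at the 1-hour and 3-hour chase, against -2.53 and -2.57 in the UO scanner signals. That of the 13 Jonah probes was 2.85 and 3.47 in U+actD, against -2.44 and -2.96 in UO. In the UO table it was 0.39 and -1.18 for the 8 listed trypsin probes and 0.26 and -1.56 for 12 listed Jonah probes. An exception in U+actD was Jon99Ci, singled out after its values were seen, with 950.5, 568.5 and 224.5 in U+actD and 244.5, 76 and 39 in UO. Of the 13 probes 12 were above the pulse in U+actD and at least 2-fold below the median probe in UO at the 1-hour chase. The slope was higher in U+actD for 11 of 13, and in the table for 10 of 11.

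Named by their common relative change at the 3-hour chase, Jon66Cii was the highest and Jon99Fii the lowest of the 6 Jonah genes above background on all arrays. Jon66Cii had net signals of 852, 1991 and 758 in U+actD and 751, 208 and 61 in UO. Jon99Fii had 2165, 6570 and 2081 in U+actD and 6512, 1311 and 138 in UO. Both stood above the pulse at the U+actD 1-hour chase and below it in both UO chases. Of the 130 probes that met both limits at the 1-hour chase, 7 were trypsin and 12 were Jonah probes.

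Other trypsin-like proteases went the same way as the family at the 1-hour chase, but less far at the median. Of 24 probes for 14 such genes, among them the neighbours lambdaTry and kappaTry, 10 probes of 7 genes entered the tests. In U+actD 0 of 10 were above the pulse at the 1-hour chase. Against the median probe, 9 of 10 were higher in U+actD and 0 of 10 in the UO scanner signals at that chase. Their median relative change at the 1-hour and 3-hour chase was 1.00 and 1.86 log2 in U+actD, against -0.71 and 0.69 in UO. Of the 24 probes only 9, 7 and 5 were above background on the UO pulse, 1-hour and 3-hour arrays. The UO values of this list therefore rest in part on the detection threshold. A probe at the threshold at the UO pulse and 3-hour chase, such as A_09_P024031 of CG17571, gets a relative change of 1.25 there. 0 of 10 passed the slope test in either direction by limma. Try29F had net signals of 4717.5, 3533 and 1615.5 in U+actD and 356.5, 510.5 and 112 in UO through its probe A_09_P030711, and CG17571 had 1915, 1012 and 261 in U+actD and 206, 157 and 103 in UO through A_09_P126350. lambdaTry, singled out after its values were seen because it lies beside the family, had 1011, 804 and 284 in U+actD and 239, 156 and 63 in UO. The difference between this list and the family was not tested.

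Carbohydrases of the gut were mixed; the listed lipase did not enter the tests. Of 9 tested probes, 2 were above the pulse in U+actD and at least 2-fold below the median probe in UO at the 1-hour chase, and 2 passed the slope test. The genes named next were singled out after their values were seen. The 2 that met both limits were the amylase genes Amy-d and Amy-p. The 2 that passed the slope test were Amy-d (1.12 ± 0.32 log2 per hour, limma adjusted p = 0.0175) and the maltase gene Mal-A1 (0.97 ± 0.32, adjusted p = 0.0471). Mal-A1 had 1211, 1655.5 and 666 in U+actD and 416, 528.5 and 116 in UO, so its UO signal at the 1-hour chase was not low as those of the trypsins were. The glucosidase gene tobi had 5803, 1482 and 182 in U+actD and 88, 114 and 51 in UO.

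Of 6 tested probes for lysozymes, enzymes that cut bacterial cell walls, 0 met both limits at the 1-hour chase. The slope was higher in U+actD for LysC (0.97 ± 0.32, adjusted p = 0.0479) and lower for LysE (-1.25 ± 0.32, adjusted p = 0.00575), both named after their values were seen. LysE had 13034, 3509 and 1248 in U+actD and 891, 330 and 3485 in UO. Its UO scanner change at the 3-hour chase was 0.32 log2, against -3.29 in the authors' UO table, and by limma on the authors' values 0 of 4 tested lysozyme probes had a lower slope in U+actD. LysB had 6337.5, 1606 and 546.5 in U+actD and 247, 199.5 and 83 in UO. In U+actD all 6 lysozyme probes were below the pulse at both chases.

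Markers of the embryo's tissues were described beside these. All 11 probes for 8 endoderm and midgut genes, mostly transcription factors, were above background at both pulses, with a median relative change of -0.41 in U+actD and 0.24 in UO at the 1-hour chase, and 0 of 11 met both limits. Of 7 tested cuticle probes, which mark late embryos, 2 met both limits and passed the slope test (Lcp65Ag1 and Lcp65Ab1, named after their values were seen), and the summed scaled signal of the 13 cuticle probes was 8496, 7584 and 4704 in U+actD and 1313, 473 and 233 in UO. Among genes above background on all 6 arrays, the common relative changes at the 3-hour chase that ranked highest and lowest were 0.60 log2 for lab and -0.54 for GATAe among the endoderm genes, and 1.31 for Lcp65Ag1 and 0.94 for ple among the cuticle genes. The lists for neurons and glia (8 tested probes), muscle (24), trachea (2), hemocytes and fat body (2) and adult yolk protein (2) held 0 probes that met both limits. Under the same limit their highest and lowest common relative changes were 0.34 for pros and -0.27 for repo in neurons and glia, 1.77 for Act57B and -0.12 for Mef2 in muscle and -0.01 for trh and -0.58 for btl in trachea, with 0.77 for Pxn, the single gene of the hemocyte list above background on all arrays. Whether the trypsin values moved with the amount of gut or the age of the embryos was not tested, and in bulk RNA fewer gut cells and less RNA per cell cannot be told apart.

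Over the 4 relative changes (both chases of both series), the named genes closest to the mean of the 9 member probes were Jon25Bi (distance 0.27 log2 units), CG10725 (0.38), Jon66Cii (0.55), CG11131 (0.60) and CG6403 (0.67), of 7272 genes above background on all arrays. 2 of these 5 are Jonah genes. Likeness was measured on the values already described and carries no test.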

How the data were processed

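Scanner files held mean foreground intensity, local background intensity and the percent of saturated pixels for 45220 spots on each of 6 one-colour arrays, as the authors deposited them. The authors' normalized table, as deposited, held intensity values scaled by the authors. The percent of saturated pixels, deposited per spot, was 0 for all member probes. Net signals were averaged per probe, scaled within a series on unsaturated spike-ins (4 in U+actD, 5 in UO), set to the threshold where below it and taken to log2. Probes were kept where both arrays of at least 1 time point passed. limma 3.58.1 in R 4.3.3 was fitted with series and time point (2 residual degrees of freedom), or with the slope term as well (1). Benjamini-Hochberg adjustment was at 0.05 over all kept probes. The fits were also run on simulated data in which every probe had the same spread. The members scattered more than other probes, so that run says nothing about the shared standard error given to them. In the fits of the common course the arrays of the 2 series stood in for replicates, so those p-values rest only on their disagreement. In the slope test that disagreement is the effect. Its error is the departure of the difference between the series from a straight line over the chase hours. Precision is limited by having 6 arrays.

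The members, the gene lists and the naming rule were chosen with earlier results of these data known. Named were all members, from each list the genes with the highest and lowest relative change at the 3-hour chase among genes above background on all 6 arrays, and the 5 closest genes under the same limit. No sequence is shown. Gene order and span came from the RefSeq annotation, and the arrays' values were not placed on coordinates. Fold changes and half-lives of the authors were not used. Python 3.11.15, pandas 2.3.3 and numpy 2.4.6 computed the rest. Alternatives were another source, scaling, background correction, filter, threshold, feature and block, and leaving out each array. The replacement of local backgrounds of 0, each probe's own spread, and the limits used for the 1-hour chase were added after the data were seen.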

Additional observations from a re-analysis of the deposited data

Results flagged for a closer look

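For 8 member probes the course through the chase was flagged as unlike between the series. For 7 this rests on the slope test and for zetaTry on the signs of its relative changes. With each probe's own spread 0 of the 7 slope calls remained, and 0 of all 19503 probes were called. Each series is 1 set of arrays, so a difference between the chases cannot be told apart from one between the array sets. By the slope test the difference, U+actD minus UO, was 2.43 log2 per hour for A_09_P057371 and 2.09 for A_09_P012316 (both named CG30031 in the table), 2.14 for deltaTry (A_09_P047041), 2.07 for betaTry, 1.69 for gammaTry, 1.30 for epsilonTry and 1.02 for alphaTry. zetaTry did not pass that test. Its relative changes at the 1-hour and 3-hour chase were 2.30 and 3.30 log2 in U+actD, against -1.47 and -0.02 in the UO scanner signals. The last of these rests on the detection threshold and is level with the median probe. At the 1-hour chase the difference was 3.77 log2, which was not tested. In the UO table zetaTry was above the median probe at both chases (1.84 and 1.04 log2).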

How the results depend on the processing

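No array has a replicate, dim UO probes rest on thresholds, and scaling sets the sign of the common change. The series block set each chase against its own pulse. Pairing by replicate number was not possible, since each group holds 1 array. The 9 calls at the 3-hour chase became 0 of 5 in the authors' table, 0 of 9 with 75th percentile scaling, 4 of 4 with probes above background on all arrays, 0 without the series block and 0 with each probe's own spread. With 75th percentile scaling, without the series block and with each probe's own spread, 0 of all 19503 probes were called lower. Leaving out the U+actD pulse put the median member change at the 3-hour chase at -5.165 log2, and leaving out the UO pulse put it at -0.53. No member probe was called at the 1-hour chase, or for a relative change at either chase, in any setting with all 6 arrays. The sign of the median relative change turned with the pulse left out. At the 3-hour and 1-hour chase it was -2.43 and -2.88 without the U+actD pulse, and 3.17 and 2.83 without the UO pulse.

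The 7 slope calls became 4 of 5 in the table, 2 of 9 with normexp, 5 of 8 with gene means, and 0 with probes above background on all arrays, without a filter, with the 99th percentile threshold, with local backgrounds of 0 replaced and with each probe's own spread. In the settings with 0 member calls 0 of all tested probes were called, and with normexp 3861 of 19532 were. The fit has no residual degrees of freedom without an array, so leaving one out was not run. The 7 probes that met both limits at the 1-hour chase became 0 of 5 in the table, 3 of 9 with normexp, 4 of 4 above background on all arrays and 2 of 7 with the 99th percentile threshold. The 6 half-lives came from 16 fits of a member probe in 1 series with its pulse above background. They became 0 of 16 with 75th percentile scaling and 11 of 20 without a filter. That of epsilonTry in U+actD turned to a rise with 75th percentile scaling (-78.2 min).

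The median change of the members at the 3-hour chase, -2.89 log2, was 0.37 with 75th percentile scaling, and -1.07 at the 1-hour chase was 0.19 with it, 1.00 in the table and -3.63 to 1.11 on leaving out 1 array. The median relative change at the 3-hour chase, 0.32, was -0.73 without a filter, -0.23 with the 99th percentile threshold, -0.15 with local backgrounds of 0 replaced and -2.43 to 3.17 on leaving out 1 array. At the 1-hour chase, 0.16 was -0.47 with the 99th percentile threshold and -2.88 to 2.83 on leaving out 1 array. The cause was not tested.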
